A study of Mus musculus with 5 samples.

Results

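The miR-29 family was followed in small RNA libraries of extracellular vesicles (EVs), the membrane-bound particles that cells release with RNA inside. The 4 strands described are mmu-miR-29a-3p, mmu-miR-29b-3p, mmu-miR-29c-3p and mmu-miR-29a-5p (the prefix mmu stands for mouse and is left out from here on), taken by name from the 1966 mature miRNAs in the deposited count table. The vesicles came from mesenchymal stem cells of C57BL/6-GFP transgenic mice, kept for 48 h in reduced serum medium and pelleted at 100000 g. In the freeze-dried group (n = 3) the vesicles were frozen at -80 °C in buffer with 25 mM trehalose, freeze-dried overnight and rehydrated for 1 h before use, and the not freeze-dried group (n = 2) skipped the drying. The labels do not say which buffer or storage temperature the not freeze-dried libraries had, nor whether the replicates are separate cultures. The p-values therefore rest on a spread between libraries that may be technical.

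miRNAs are short RNAs, cut from a hairpin, that pair with messenger RNAs through their seed (bases 2 to 8) and repress them. The miR-29 family is known for repressing matrix genes, among them the collagens Col1a1, Col1a2 and Col3a1, elastin (Eln) and fibrillin (Fbn1), and its levels are known to fall in fibrotic heart, lung and kidney. In bone-forming cells of mesenchymal origin it is known to rise with differentiation. In each hairpin the 3p strand is the usual guide, the strand that enters the silencing complex, and the 5p strand is the passenger that is mostly degraded.

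The mature strands are shown because the results turn on how alike they are. All sequences are RefSeq's, on GRCm38.p6, the build family named in the submitters' processing notes, and all 7 mouse miR-29 strands of the count table matched an entry. Capitals mark the seed.
mmu-miR-29a-3p: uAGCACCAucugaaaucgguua
mmu-miR-29b-3p: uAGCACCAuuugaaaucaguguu
mmu-miR-29c-3p: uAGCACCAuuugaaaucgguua
mmu-miR-29a-5p: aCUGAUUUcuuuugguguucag
mmu-miR-29b-1-5p: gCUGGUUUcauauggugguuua

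The 3 guide strands share the seed AGCACCA, and of 1679 mature mouse miRNAs in the RefSeq table they are the 3 that carry it. Counted from the 5′ end, miR-29c-3p differs from miR-29a-3p by 1 base, C10U. miR-29b-3p differs from miR-29a-3p at 4 of 22 compared bases (C10U, G18A, U21G and A22U) and is 1 base longer. miR-29b-3p ends with AGUGUU, starting at base 18, letters known in human cells as a signal that directs miR-29b to the nucleus. Among all mature mouse miRNAs, 0.715% hold AGUGUU, searched on the mature strand as given. GGAG and CCCU, known as vesicle-sorting motifs in human T cells and searched in the same way, are found in 14.2% and 11.4% of mature mouse miRNAs. The letters of these 2 motifs occur in none of the 7 miR-29 strands. The seed of miR-29a-5p, CUGAUUU, occurs in no other mature miRNA of the table.

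The hairpins form 2 pairs in the genome. Mir29a lies at chr6:31062660-31062747 and Mir29b-1 at chr6:31063023-31063093, both on the minus strand with 275 bases between them. In GENCODE M21, Mir29a overlaps no other gene, and Mir29b-1 shares 2 bases with an exon of the long non-coding RNA Gm27019. Mir29b-2 lies at chr1:195037040-195037120 and Mir29c at chr1:195037547-195037634, both on the plus strand with 426 bases between them. Both lie inside exons of the non-coding transcript A330023F24Rik and, on the other strand, of the protein-coding gene Cd46. Both miR-29b hairpins yield the same miR-29b-3p sequence, so its counts cannot be assigned to one locus. The hairpin pair of chromosome 6 is shown with its mature strands in capitals, 5p first, because miR-29a supplies most family reads.
Mir29a: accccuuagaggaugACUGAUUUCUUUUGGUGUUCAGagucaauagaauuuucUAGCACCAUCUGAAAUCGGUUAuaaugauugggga
Mir29b-1: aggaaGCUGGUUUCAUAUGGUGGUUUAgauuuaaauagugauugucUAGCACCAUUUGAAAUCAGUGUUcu

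Library totals ranged from 131507 to 2914305 counts. The 3 libraries above 500000 counts (freeze-dried replicates 1 and 2 and not freeze-dried replicate 1) are referred to as deep, and the other 2, freeze-dried replicate 3 and not freeze-dried replicate 2, shallow. Of 10 mesenchymal marker miRNAs, 10 had counts in all 5 libraries, and together they took 15.6% to 18.1% of the counts in freeze-dried libraries and 22.1% to 22.8% in not freeze-dried ones. The epithelial list took 0.0203% to 0.0435% of the counts in freeze-dried libraries and 0.0707% to 0.0753% in not freeze-dried ones, with miR-200c-3p, miR-141-3p and miR-429-3p at 0. In these 2 lists the groups did not overlap, with freeze-dried lower, as was the case for 9.79% of the single miRNAs tested below. The part of these lists in the miR-29 values was not tested. The blood cell, muscle, neural, hepatocyte and endothelial lists overlapped between the groups. Each of them stayed at or below 0.617% of the counts in every library, with miR-142a-3p and miR-137-3p at 0.

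miR-29a-3p was by far the main family member in these vesicles, and the difference in its level between the groups was smaller than the spread between libraries. It had 26868, 20112 and 644 counts in freeze-dried replicates 1, 2 and 3, against 11886 and 625 counts in not freeze-dried replicates 1 and 2. As CPM, counts scaled to a library total of 1000000, these were 9219, 8132 and 3346 CPM in freeze-dried libraries and 13032 and 4753 CPM in not freeze-dried libraries. The not freeze-dried libraries held both the highest value and one of the lowest, so the groups overlapped. By rank it was the 25th, 31st and 41st most counted miRNA in freeze-dried replicates 1, 2 and 3, and the 20th and 41st in not freeze-dried replicates 1 and 2, among 315 to 361 miRNAs with a count in a library. Means were 6899 ± 3125 CPM in freeze-dried vesicles (SD, n = 3) and 8892 ± 5854 CPM in not freeze-dried vesicles (SD, n = 2).

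In the edgeR fit over all 327 tested miRNAs, with TMM normalization of the deposited counts, the log2 fold change of miR-29a-3p was -0.22, with an SE of 0.50, a 95% interval of -1.37 to 0.94 and an adjusted p of 0.98. As a ratio, the interval ran from 0.387 to 1.92. An interval inside 2-fold in both directions was found for 0 of the 4 members and for 8.56% of the tested miRNAs. Whether fewer vesicles carried a strand or each carried less of it cannot be told apart in such libraries. All 4 members passed the filter on low counts, and 0 of 4 were called at an adjusted p under 0.05. The background over all tested miRNAs was 0% called higher and 0% called lower, with 9 miRNAs (2.75%) at an unadjusted p under 0.05 in edgeR, 16 in DESeq2 and 16 in limma-voom.

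Depth moved with the level of miR-29a-3p. Both shallow libraries lay below all 3 deep ones, as they did for 16.8% of the tested miRNAs. Among deep libraries the CPM of miR-29a-3p was 0.707 and 0.624 times that of not freeze-dried replicate 1 in freeze-dried replicates 1 and 2. Among shallow libraries it was 0.704 times that of not freeze-dried replicate 2 in freeze-dried replicate 3. It was thus lower in the freeze-dried library of each of these 3 pairs. The same held within both depth classes for 21.4% of the tested miRNAs, and for 2 of the 4 members, miR-29a-3p and miR-29c-3p. The reverse, freeze-dried higher within both classes, held for 12.8% of the tested miRNAs and for 0 of the 4 members. With depth class as a term in the edgeR fit, a term chosen with earlier results of these data known, the fold change of miR-29a-3p was -0.40 on the log2 scale (SE 0.23, interval -0.94 to 0.14) and was not called (adjusted p = 0.90). The part that depth plays in the level was not tested beyond this. The sign of the fold change in the fit without this term turned when not freeze-dried replicate 1 was left out (log2 fold change 0.63) and when freeze-dried replicate 3 was (0.12).

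**Figure D1:**
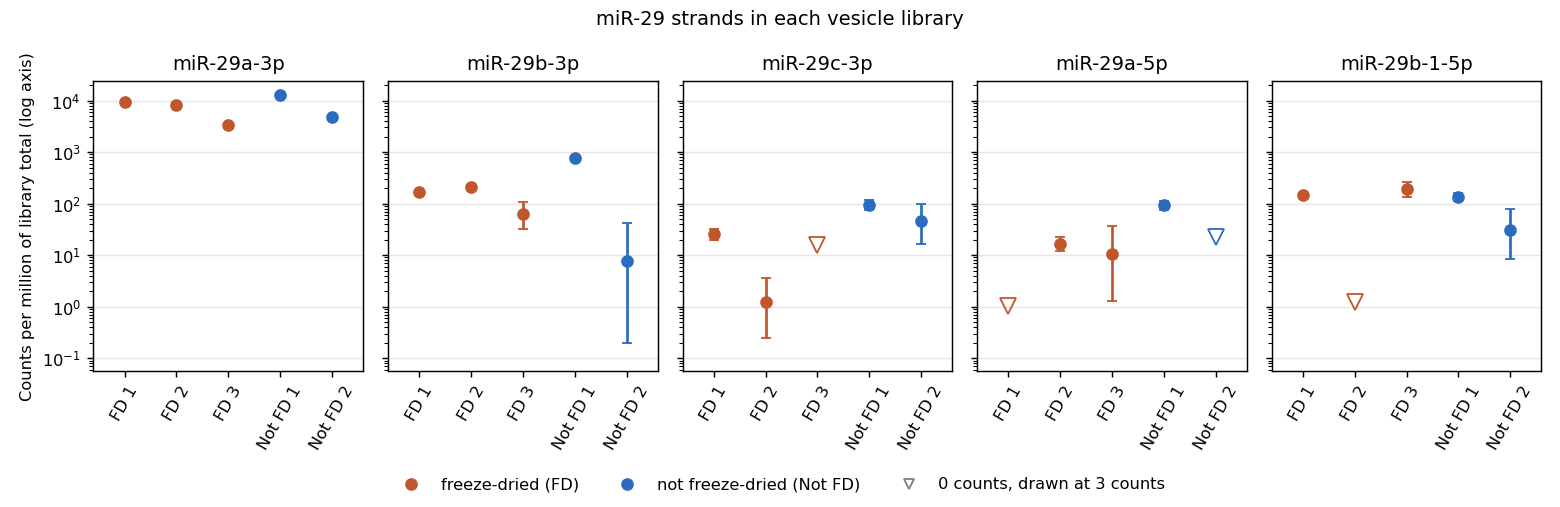
Level of each miR-29 strand with a count, in CPM (log axis), in the 3 freeze-dried (FD) and 2 not freeze-dried libraries. Bars are exact binomial 95% intervals, which cover counting error only, and open triangles mark a count of 0, drawn at the level of 3 counts. miR-29a-3p stands between 3346 and 13032 CPM in every library, while the other strands stay at or under 778 CPM.

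miR-29b-3p, cut from a hairpin next to that of miR-29a and from a second one on chromosome 1, was the second most counted guide in 4 of the 5 libraries. It had 479, 522 and 12 counts in freeze-dried replicates 1, 2 and 3, against 710 counts and 1 count in not freeze-dried replicates 1 and 2. These were 164, 211 and 62.4 CPM in freeze-dried libraries and 778 and 7.60 CPM in not freeze-dried libraries. All 3 freeze-dried libraries lay between the 2 not freeze-dried ones, whose counting intervals, 722 to 838 CPM and 0.193 to 42.4 CPM, were far apart. In edgeR its log2 fold change of -1.25 had an SE of 1.39, an interval of -4.36 to 1.86 and an adjusted p of 0.98. That value rests on not freeze-dried replicate 1, without which it was 4.33. The one library then left in that group has 1 count, so the size of the 4.33 rests on that count. In the 3 deep libraries alone, 2 against 1, it was -1.90 (interval -3.50 to -0.30), with an adjusted p of 0.79 in edgeR.

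miR-29c-3p, which shares the hairpin pair of chromosome 1 with miR-29b, was scarce and was the member whose groups did not overlap. It had 74, 3 and 0 counts in freeze-dried replicates 1, 2 and 3, against 87 and 6 counts in not freeze-dried replicates 1 and 2. These were 25.4, 1.21 and 0 CPM in freeze-dried libraries and 95.4 and 45.6 CPM in not freeze-dried libraries. The count of 0 in freeze-dried replicate 3 has an exact binomial 95% upper limit of 19.2 CPM. The 6 counts of not freeze-dried replicate 2 have an interval of 16.7 to 99.3 CPM, which reaches below that limit. Whether counting error alone separates these 2 shallow libraries was not tested. Groups that do not overlap, with freeze-dried lower, were found for 1 of the 4 members and for 9.79% of all tested miRNAs, and with freeze-dried higher for 0 of 4 and for 6.73%. The edgeR log2 fold change of miR-29c-3p was -2.73, with an SE of 2.54 nearly as large, an interval of -8.41 to 2.95 and an adjusted p of 0.98. It stayed negative in each of the 15 alternative fits, at -6.03 to -2.16. It was not called in those that kept 2 or more libraries per group. Since the groups do not overlap, leaving out a library could hardly turn the sign, so the kept sign adds little. The -6.03 is the fit without freeze-dried replicate 1, which left 3 and 0 counts in the freeze-dried group.

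miR-29a-5p, the passenger strand of the miR-29a hairpin, came and went between libraries. It had 0, 41 and 2 counts in freeze-dried replicates 1, 2 and 3, against 84 and 0 counts in not freeze-dried replicates 1 and 2. These were 0, 16.6 and 10.4 CPM in freeze-dried libraries and 92.1 and 0 CPM in not freeze-dried libraries. Each group held a library at 0, so the groups overlapped. By the floor of 3 counts, the 0 of freeze-dried replicate 1, the deepest library, allows up to 1.03 CPM. That of not freeze-dried replicate 2 allows up to 22.8 CPM. The levels of freeze-dried replicates 2 and 3 lie below this floor, so a 0 at those levels is possible. On the log2 scale edgeR put its fold change at -2.22 (SE 2.85), between -8.60 and 4.16 (adjusted p = 0.98). Without not freeze-dried replicate 1 it was 6.70, but the one library left in that group is at 0, so the size of that value depends on the fit's prior count.

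Of the 4 members, 4 had a fitted fold change below 1, as had 48.9% of all tested miRNAs, with a median log2 fold change of -1.74 over the members and 0.02 over all tested miRNAs. The members share libraries and come from hairpins that lie in close pairs, with both strands of the miR-29a hairpin among them. For 3 of them the interval spans more than 6 log2 units. In the plot of all tested miRNAs they stand among others of like abundance.

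**Figure D2:**
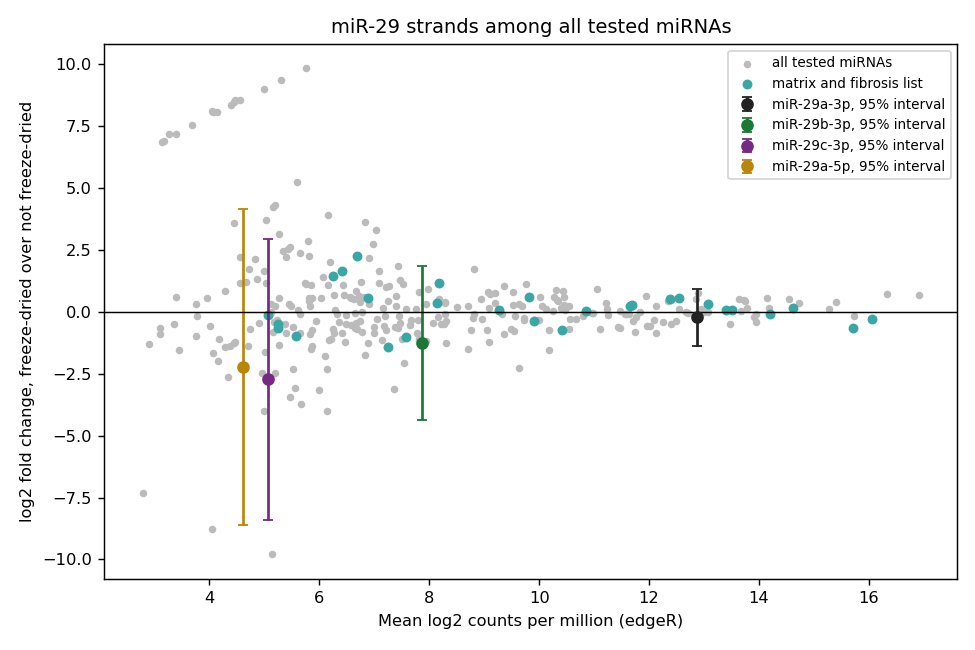
Each point is a tested miRNA, with its mean log2 CPM on the horizontal axis and its log2 fold change (freeze-dried over not freeze-dried) from edgeR on the vertical axis. Vertical bars are the 95% intervals of the 4 miR-29 strands, all of which cross 0. That of miR-29a-3p runs from -1.37 to 0.94 and that of miR-29a-5p from -8.60 to 4.16.

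The relative amounts of the strands within a library need no normalization between libraries. The strands compared are 22 or 23 bases long, so their counts were set side by side without division by length, and they are counts rather than molar amounts. Of the summed counts of the 4 members, miR-29a-3p took 98.0%, 97.3% and 97.9% in freeze-dried replicates 1, 2 and 3, against 93.1% and 98.9% in not freeze-dried replicates 1 and 2. The order below it was less fixed. miR-29b-3p stood above miR-29c-3p in all freeze-dried libraries and in not freeze-dried replicate 1, but below it in not freeze-dried replicate 2, with 1 count against 6. The CPM ranges of miR-29c-3p and miR-29a-5p overlapped in both groups, so these 2 are not ordered.

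The share of miR-29b-3p in the reads of miR-29a-3p and miR-29b-3p was 1.75%, 2.53% and 1.83% in freeze-dried replicates 1, 2 and 3. In not freeze-dried replicates 1 and 2 it was 5.64% (exact binomial 95% interval 5.24 to 6.05) and 0.160% (interval 0.00404 to 0.887). The 3 freeze-dried libraries were thus close to each other, and the 2 not freeze-dried ones stood on either side of them. The log2 ratio of miR-29b-3p to miR-29a-3p, with 0.5 added to each count, averaged -5.59 ± 0.28 in freeze-dried libraries (SD, n = 3) and -6.38 ± 3.28 in not freeze-dried libraries (SD, n = 2). The difference of 0.80 had an exact two-sided permutation p of 0.80, where 3 libraries against 2 cannot go below 0.2. Without not freeze-dried replicate 2 the difference was -1.52.

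The share of miR-29c-3p in the reads of miR-29a-3p and miR-29c-3p was 0.275%, 0.0149% and 0% in freeze-dried replicates 1, 2 and 3. In not freeze-dried replicates 1 and 2 it was 0.727% (interval 0.582 to 0.896) and 0.951% (interval 0.350 to 2.06). The 0 of 644 reads in freeze-dried replicate 3 allows a share of up to 0.466%. Every freeze-dried share was below both not freeze-dried shares, and those of freeze-dried replicates 1 and 2 had intervals (0.216 to 0.345 and 0.00308 to 0.0436) below both of theirs. The log2 ratio, with 0.5 added, averaged -10.4 ± 2.0 in freeze-dried libraries (SD, n = 3) and -6.84 ± 0.35 in not freeze-dried libraries (SD, n = 2). The difference of -3.60 had an exact two-sided permutation p of 0.20, the smallest that this design allows, and 0.60 after Benjamini-Hochberg adjustment over the 3 ratios tested. Its size depends on the number added to the counts of 0 and 3, and was -2.58 without freeze-dried replicate 2. The 2 strands differ by C10U alone, and how reads with a mismatch were counted is not given in the sources used here.

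**Figure D3:**
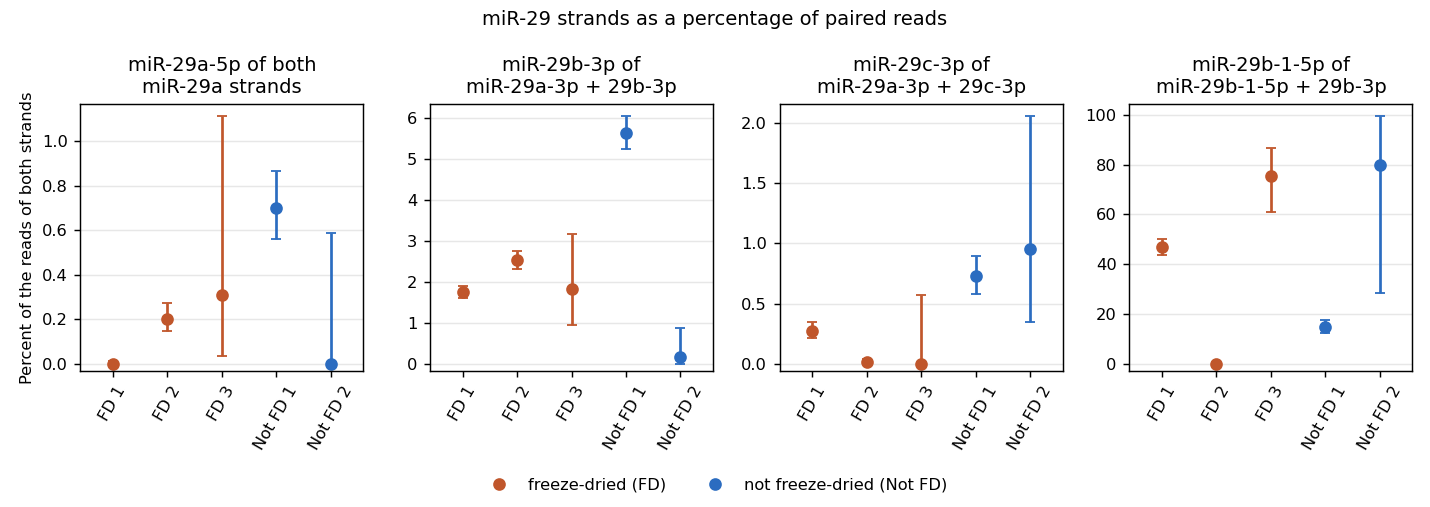
Share of 1 strand in the reads of a pair of strands, in percent, for each library, with exact binomial 95% intervals. From left to right the panels show miR-29a-5p, miR-29b-3p, miR-29c-3p and miR-29b-1-5p, each against its partner, on separate scales. The miR-29c-3p share is at most 0.275% in freeze-dried libraries and at least 0.727% in not freeze-dried ones. For the shallow libraries its intervals overlap, at 0 to 0.571% in freeze-dried replicate 3 and 0.350% to 2.06% in not freeze-dried replicate 2. The other 3 panels overlap between the groups.

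The strands of one hairpin also varied between libraries. miR-29a-5p made up 0%, 0.203% and 0.310% of the reads of both miR-29a strands in freeze-dried replicates 1, 2 and 3, against 0.702% and 0% in not freeze-dried replicates 1 and 2. The 3p strand was the main strand of this hairpin in every library. The log2 ratio of 5p to 3p, with 0.5 added, averaged -10.9 ± 4.2 in freeze-dried libraries (SD, n = 3) and -8.71 ± 2.23 in not freeze-dried libraries (SD, n = 2). The difference of -2.17 had an exact two-sided permutation p of 0.80, and was 0.25 without freeze-dried replicate 1.

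Of the other miR-29 strands, miR-29b-2-5p and miR-29c-5p had 0 counts in all libraries, and miR-29b-1-5p, the passenger of the second hairpin on chromosome 6, was counted in 4 of 5. It had 425, 0 and 37 counts in freeze-dried replicates 1, 2 and 3, against 125 and 4 counts in not freeze-dried replicates 1 and 2. As a share of the reads of miR-29b-1-5p and miR-29b-3p, it took 47.0%, 0% and 75.5% in freeze-dried replicates 1, 2 and 3, against 15.0% and 80.0% in not freeze-dried replicates 1 and 2. The last of these rests on 5 reads (interval 28.4 to 99.5). In 2 of the 5 libraries, both shallow, this passenger thus had more counts than the guide, although part of the guide's reads may come from the hairpin on chromosome 1. By the floor of 3 counts, the 0 of 522 reads in freeze-dried replicate 2 allows a share of up to 0.575%. Replicates of one group differed in this share far beyond counting error. edgeR gave miR-29b-1-5p a fold change of 0.64 on the log2 scale, between -4.25 and 5.53 (SE 2.18, adjusted p = 0.98).

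Together the 4 members took 0.941%, 0.836% and 0.342% of all counts in freeze-dried replicates 1, 2 and 3, against 1.40% and 0.481% in not freeze-dried replicates 1 and 2. The means were 0.706% ± 0.320 in freeze-dried vesicles (SD, n = 3) and 0.940% ± 0.650 in not freeze-dried vesicles (SD, n = 2). The difference of -0.23 percentage points was under the SD of either group. Without not freeze-dried replicate 1 it was 0.23.

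Other miRNAs known to act on matrix or fibrosis genes were set beside the family. Of 36 such miRNAs, 28 were tested, 0 were called higher and 0 lower, and 17 had a fitted fold change above 1 and 11 below (39.3%, against 48.9% of all tested miRNAs). Among the 28, groups did not overlap for 3 with freeze-dried lower, miR-21a-5p and miR-143-3p among them, and for 2 with freeze-dried higher. Over all 327 tested miRNAs these were 32 (9.79%) and 22 (6.73%), so the list was near the background. The median log2 fold change of the list was 0.09, against 0.02 over all tested miRNAs. Without not freeze-dried replicate 1 the order of these medians turned, with 0.12 for the list and 0.57 over all tested miRNAs. Without not freeze-dried replicate 2 it turned as well, with 0.21 and 0.50. These 2 fits tested 405 and 423 miRNAs rather than 327, so the turn is not over a fixed set. The most abundant of the list was miR-21a-5p, known to promote fibrosis in heart and lung. It stood at 59974 ± 17337 CPM in freeze-dried vesicles (SD, n = 3) and 80151 ± 9663 CPM in not freeze-dried vesicles (SD, n = 2). Its log2 fold change was -0.28 (SE 0.33). For miR-143-3p of smooth muscle and fibroblasts it was -0.66 (SE 0.26, interval -1.25 to -0.08, adjusted p = 0.98 in edgeR). miR-30d-5p, whose family is known to repress connective tissue growth factor, stood at 0.15 (SE 0.28), and miR-140-3p of cartilage at -0.08 (SE 0.42). miR-29a-3p, at a mean of 7696 CPM over the 5 libraries, was less abundant than each of these 4 miRNAs. They were chosen as the 4 most abundant of the list, so this does not place miR-29a-3p among the others of the list.

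The profile of miR-29a-3p over the 5 libraries was compared with those of the 192 tested miRNAs, itself included, that had at least 100 CPM on average. Likeness was the root mean square distance between log2 CPM values centred on each miRNA's own mean, and the median distance was 0.90. The 5 nearest were miR-100-5p (0.17), miR-351-5p (0.17), miR-574-3p (0.26), miR-140-3p (0.30) and miR-129-5p (0.31). Each was low in both shallow libraries and high in the 3 deep ones, as miR-29a-3p was. They were chosen for this likeness, so the shared shape is no separate result. miR-29b-3p, from the neighbouring hairpin, was the 153rd nearest (distance 1.65). Its profile rests on 12 counts in freeze-dried replicate 3 and 1 count in not freeze-dried replicate 2. Part of its reads may also come from the hairpin on chromosome 1, so this distance does not compare the 2 neighbouring hairpins alone. miR-29c-3p and miR-29a-5p were under 100 CPM and were not compared.

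**Figure D4:**
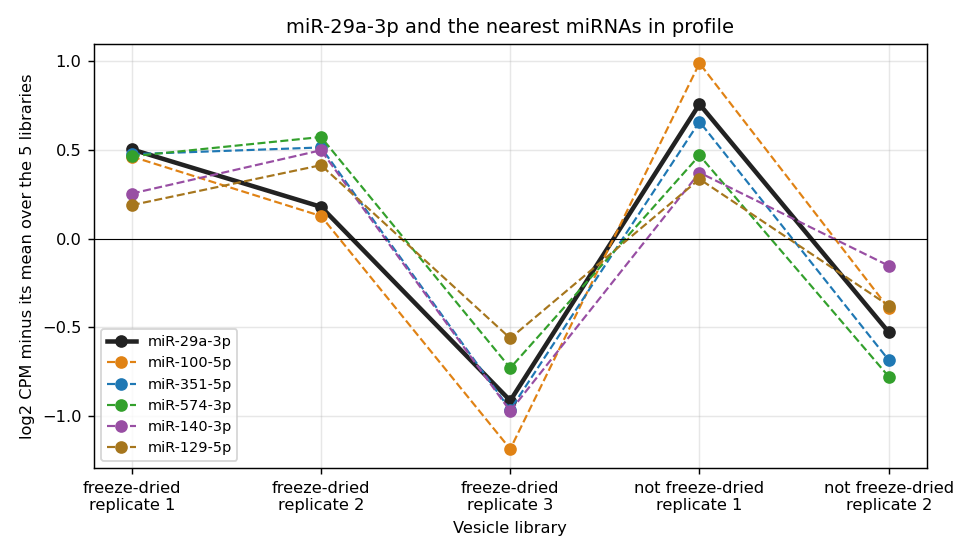
Log2 CPM of miR-29a-3p and its 5 nearest miRNAs, centred on each miRNA's mean over the 5 libraries, by library (lines only join the points of 1 miRNA). All 6 profiles are below 0 in freeze-dried replicate 3 and not freeze-dried replicate 2, the shallow libraries, and above 0 in the other 3.

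**Figure D5:**
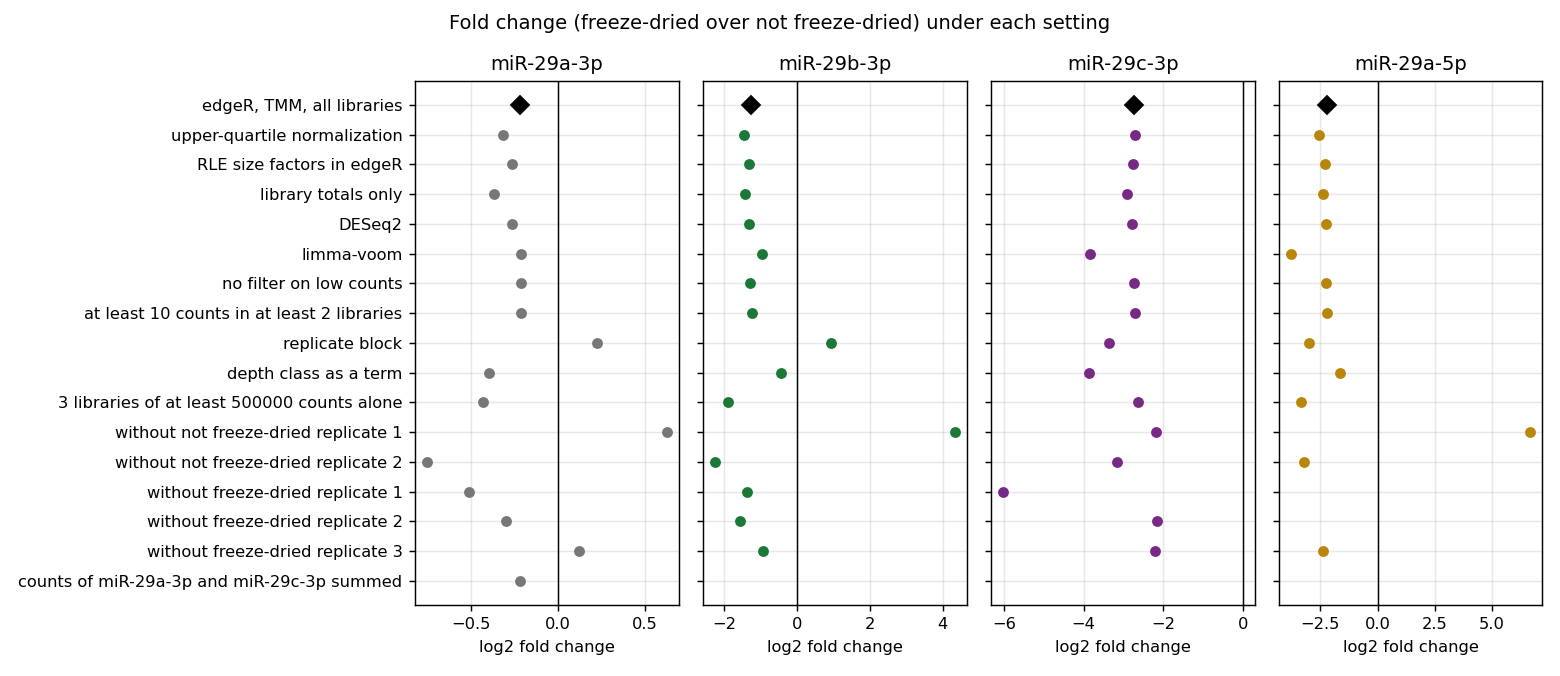
Log2 fold change (freeze-dried over not freeze-dried) of each member under the reported fit (diamond) and each alternative (circles), with a separate horizontal scale per panel and no point where the member was not tested. miR-29c-3p, whose groups do not overlap, stays between -6.03 and -2.16 in the alternatives, while the other 3 members change sign without not freeze-dried replicate 1.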

How the data were processed

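The authors deposited raw read counts per mature miRNA for 5 libraries. The GRCm38 build, Bowtie 1.1.2, featureCounts 1.5.0-p1, cutadapt 2.3, FastQC and bcl2fastq 2.20 are listed in the submitters' processing notes, without roles or settings. Which miRNA annotation was used, and how multi-matching, mismatched or duplicate reads were handled, is not given in the sources used here. Members and lists were chosen with earlier results of these data known.

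From these counts, edgeR 4.0.16 in R 4.3.3 gave the fold changes (quasi-likelihood test, TMM, filterByExpr, Benjamini-Hochberg over 327 tested of 517 counted miRNAs). The SE is the log2 fold change divided by the square root of F. Shares have exact binomial 95% intervals, which, like floors of 3 counts, cover counting error only. Ratios were compared by exact permutation in scipy 1.17.1. Alternatives were other normalizations and filters, DESeq2 1.42.0, limma-voom (limma 3.58.1), a depth term, the deep libraries alone, a replicate block and leaving out each library. Named miRNAs are the members, other miR-29 strands with a count, the 4 most abundant of the matrix list and the 5 nearest in profile. Scripts were tested on simulated data. Sequences are from RefSeq (GRCm38.p6), gene overlaps from GENCODE M21.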

Additional observations from a re-analysis of the deposited data

How the results depend on the processing

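No member was called in any of the fits run, and miRNAs called higher stayed at 0. Those called lower became 4 with the replicate block and 1 in the 3 deep libraries, none of them a member. With the replicate block the log2 fold change became 0.22 for miR-29a-3p and 0.94 for miR-29b-3p. The replicate numbers make 2 pairs, whose deviations correlated at 0.17 and -0.12. With 2 not freeze-dried libraries, deviations from their mean mirror each other, so these are not separate checks. Replicate 2 also joins a deep library with a shallow one. Whether the libraries were paired therefore cannot be decided from these values. Leaving out 1 library gave -0.75 to 0.63 for miR-29a-3p, -2.25 to 4.33 for miR-29b-3p, -6.03 to -2.16 for miR-29c-3p and -3.22 to 6.70 for miR-29a-5p, which could not be tested when freeze-dried replicate 1 or 2 was missing. The signs of 3 members turned without not freeze-dried replicate 1 (0.63, 4.33 and 6.70), and that of miR-29a-3p when freeze-dried replicate 3 was left out (0.12). Without not freeze-dried replicate 1, that group is 1 library, with 1 count of miR-29b-3p and 0 of miR-29a-5p. The difference in log2 ratio to miR-29a-3p became -1.47 for miR-29b-3p in the deep libraries. Without 1 library it ran from -1.52 to 3.12 for miR-29b-3p, from -4.57 to -2.58 for miR-29c-3p and from -3.75 to 0.25 for miR-29a-5p. The difference in summed share ran from -0.69 to 0.23 percentage points. The median of the matrix list was 0.011 to 0.26 in its 7 alternatives. It was below the median over all tested miRNAs when either not freeze-dried library was left out (0.12 against 0.57, and 0.21 against 0.50). Those fits tested 405 and 423 miRNAs rather than 327, so the sets behind the medians changed. The causes were not tested. Depth limits the scarce strands, since by the floor of 3 counts a 0 in the shallow libraries allows 15.6 or 22.8 CPM. miR-29b-3p had 1 count in the shallowest.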
